A study of Mus musculus with 8 samples.

Results

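A set of 10 genes of glucocorticoid handling was followed in mouse liver, 10 of the 55450 genes in the tables: the steroid enzymes Hsd11b1, H6pd and Srd5a1, the plasma carrier gene Serpina6, the receptor gene Nr3c1 and the receptor targets Fkbp5, Tsc22d3, Klf9, Sgk1 and Tat. They were chosen by symbol for their roles, with earlier results of the same knockout against control comparison known, so their differences are given as a description and support no claim about the group. The data are RNA sequencing of 8 livers. The 4 control livers carried floxed Cebpa alleles (Cebpafl/fl) without Cre, and the 4 knockout livers (CebpaΔHep, Cre+) lacked Cebpa in hepatocytes. The product of Cebpa, C/EBP alpha, is a transcription factor that keeps hepatocytes differentiated. Neither the strain nor the promoter driving Cre is given in the sources used here. Mice were 10 weeks old at the start, and all 8 livers followed 5 days of liquid control diet and then 4 weeks of a liquid diet with 5% ethanol by volume. Because livers without ethanol were not analysed here, none of the values is a response to ethanol.

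Glucocorticoids are adrenal steroids that act in the liver on gluconeogenesis, amino acid breakdown and inflammation. In rodents the main one is corticosterone, which travels in plasma bound to corticosteroid-binding globulin, is regenerated from an inert keto form inside the endoplasmic reticulum of hepatocytes, and is cleared by reduction of its ring. Bound to hormone, the glucocorticoid receptor leaves its chaperones, enters the nucleus and activates genes through palindromic DNA elements. In the rat, C/EBP alpha is described as an activator of the Hsd11b1 promoter.

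The libraries held 21048350 to 28148744 expected counts. Cebpa was 41.5-fold lower in knockouts, from 293.3 ± 31.1 to 7.06 ± 1.65 CPM (SD, n = 4), with every knockout below every control. Levels are given in CPM, which are counts on TMM-scaled library sizes, or in TPM, the authors' unit that also divides by transcript length. Of 13303 genes tested with edgeR, 274 passed an adjusted p of 0.05, 113 higher and 161 lower, and 161 and 115 with library size as the only scaling. Hepatocyte markers summed to 94868 to 130672 CPM in controls and 116793 to 127400 CPM in knockouts. Most of this sum was Alb, whose mean was 78419 CPM for controls and 89437 CPM for knockouts, so it says little about the other markers. Of the 11 markers tested, 7 had a negative log2 fold change and 4 a positive one, with a median of -0.16. None was called by edgeR, and the second test, DESeq2, called Cps1 lower (adjusted p = 0.00245), where it called 6.45% of all tested genes. In RNA from whole liver, fewer cells of a type and less RNA per cell cannot be told apart. Control 2 stood apart in the acute phase genes, 19 of which summed to 59787 CPM there and to 20705 to 25037 CPM in the other controls. Knockouts 1 to 3 were at 18306 to 18666 CPM in that sum and knockout 4 at 23105 CPM. Calls that change without control 2 and knockout 4 are given with and without them.

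All 10 genes had enough counts to be tested. Hsd11b1, Srd5a1 and Serpina6 were lower in knockouts at an edgeR adjusted p below 0.05 and none was higher, where 1.21% of all tested genes were called lower and 0.849% higher. Counting livers instead, 4 of the 10 had every knockout below every control (Hsd11b1, Srd5a1, Serpina6 and Nr3c1) and Sgk1 alone had every knockout above, where 5.92% and 5.54% of all tested genes did so. In the other 5 the groups overlapped. These shares are printed for reference and nothing is read from them, because the genes were chosen with this comparison known.

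**Figure D1:**
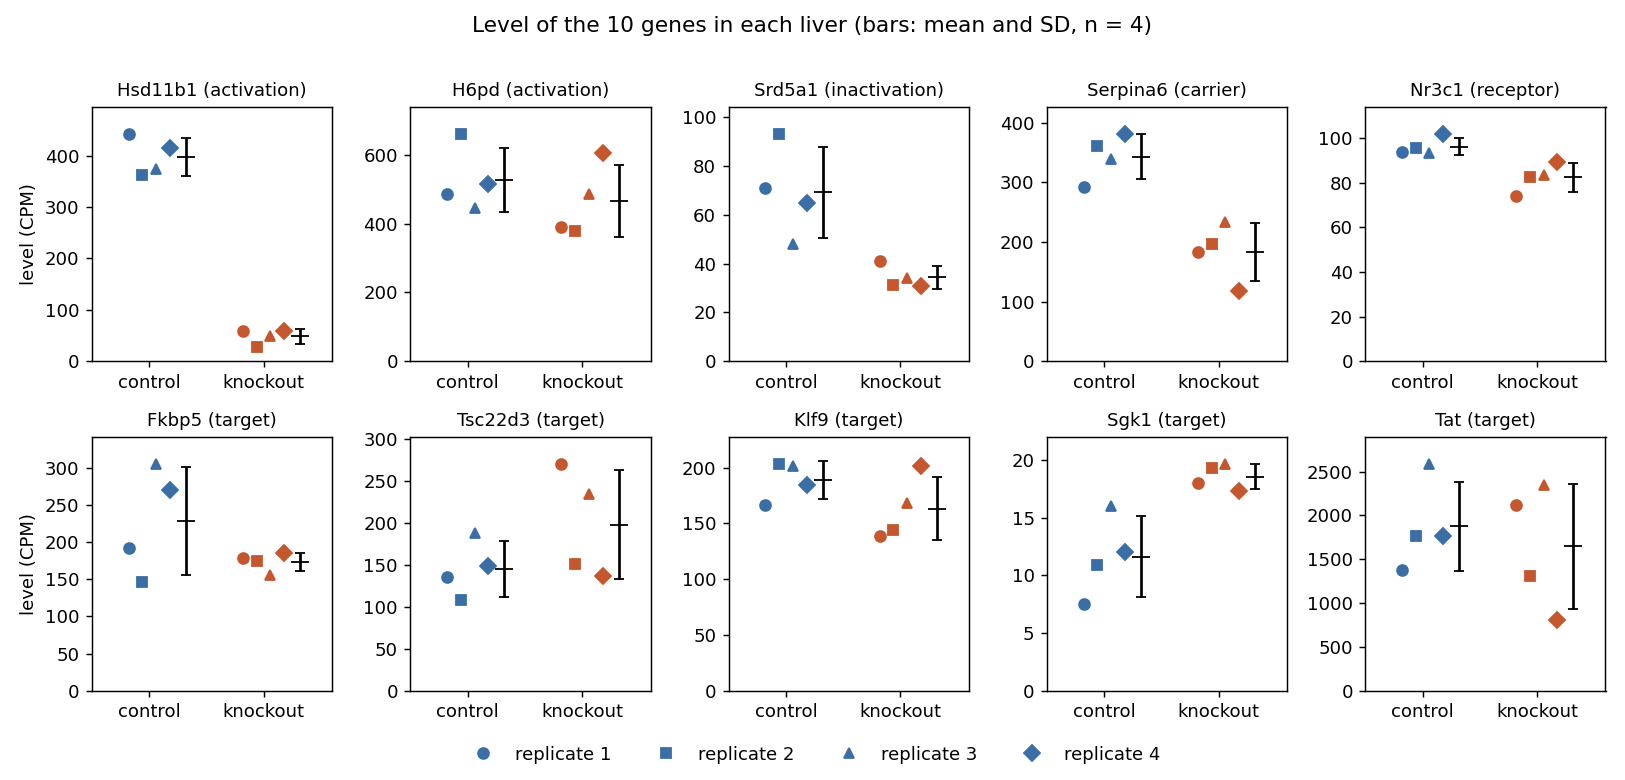
Level in CPM of each of the 10 genes in each liver, with the y axis of each panel starting at 0, control livers in blue, knockout livers in orange, marker shape giving the replicate number and black bars the mean and SD of 4 livers. Hsd11b1 lay between 361.9 and 441.4 CPM in controls and between 27.8 and 58.8 CPM in knockouts, while the 2 groups of Fkbp5, Tsc22d3, Klf9, Tat and H6pd overlapped.

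Hsd11b1 encodes the reductase that regenerates corticosterone in hepatocytes. The gene (ENSMUSG00000016194.14) lies on the minus strand of mm10 chromosome 1, from 193221634 to 193264075. Control livers 1 to 4 held 441.4, 361.9, 373.0 and 413.8 CPM, against 58.8, 27.8, 49.2 and 58.4 CPM in knockout livers 1 to 4. Every knockout was far below every control, and knockout 2 was the lowest liver. Hsd11b1 was 8.19-fold lower, with a log2 fold change of -3.03 (SE 0.23, edgeR adjusted p = 0.000328), and 28 of the 13303 tested genes had a more negative value. The log2 fold change ran from -3.15 to -2.84 with 1 liver left out, and the gene passed the test in all 8 of those fits. Among the opposite-strand and same-strand genes that overlap it, Lamb3 averaged 7.69 CPM in controls against 7.67 CPM in knockouts, and Gm38118 and 4930570N18Rik did not exceed 0.097 CPM in any liver.

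H6pd (chromosome 4, 149979475 to 150009023, minus strand) encodes hexose-6-phosphate dehydrogenase, which makes the NADPH that the Hsd11b1 enzyme uses. In order of liver, the 4 controls had 487.7, 661.1, 444.8 and 516.6 CPM of H6pd and the 4 knockouts 390.9, 380.0, 486.7 and 607.7 CPM. The groups overlapped, with control 2 and knockout 4 the highest of their groups. On the log2 scale the difference was -0.18 (SE 0.17), at an edgeR adjusted p of 0.618. The ratio of H6pd to Hsd11b1 in TPM ran from 0.328 to 0.547 in controls and from 1.91 to 3.96 in knockouts. Without control 2 the log2 fold change of H6pd was -0.05, and without knockout 4 it was -0.33, neither passing the test.

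Srd5a1 (chromosome 13, 69573449 to 69611442, minus strand) encodes a steroid reductase that reduces the ring of corticosterone on the way to its clearance. The Srd5a1 readings were 71.0, 93.1, 48.2 and 64.8 CPM for controls 1 to 4, next to 40.9, 31.3, 34.3 and 30.9 CPM for knockouts 1 to 4. All knockouts were below the lowest control, control 3. Srd5a1 was 2.02-fold lower, with a log2 fold change of -1.01 (SE 0.18, edgeR adjusted p = 0.0279). With 1 liver left out, 5 of the 8 fits no longer called it, those without control 1, control 4, knockout 2, knockout 3 or knockout 4, with adjusted p = 0.0945 at the highest without knockout 2. The authors' counting gave it fractional counts in all livers, as RSEM gives where it divides reads between genes. The same-strand gene Gm17108, which overlaps it, did not exceed 0.948 CPM in any liver, and Srd5a1 and Gm17108 together held 70.0 ± 18.8 CPM against 34.7 ± 4.56 CPM in knockouts (SD, n = 4). Nsun2, on the opposite strand, overlaps it as well and averaged 79.7 CPM in controls against 63.5 CPM in knockouts (adjusted p = 0.0836). Whether the counting told reads of these genes apart by strand was not given.

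Serpina6 encodes corticosteroid-binding globulin, which hepatocytes secrete. It lies on the minus strand of chromosome 12, from 103646630 to 103657212, and no annotated gene overlaps it. Control livers 1 to 4 held 292.6, 360.2, 338.5 and 380.8 CPM, against 182.6, 196.6, 234.1 and 117.7 CPM in knockout livers 1 to 4. The groups did not overlap, and knockout 4 was the lowest. Serpina6 was 1.88-fold lower, with a log2 fold change of -0.91 (SE 0.19, edgeR adjusted p = 0.0405). With 1 liver left out, 6 of the 8 fits no longer called it, all but those without knockout 3 or knockout 4, with adjusted p = 0.109 at the highest without knockout 1. On log2(TPM + 1) the adjusted p was 0.0564, and with control 2 and knockout 4 both left out it was 0.0243, at a log2 fold change of -0.73.

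Serpina6 sits near an end of the clade A serpin cluster, which also holds the alpha-1 antitrypsin genes. Of the 15 other cluster genes tested, 5 were called lower and none higher, where 1.21% of all tested genes were called lower and 0.849% higher, and 9 had an unadjusted p below 0.05, where 18.5% of all tested genes did. The 5 were Serpina1a to Serpina1e, with log2 fold changes from -6.67 for Serpina1e to -0.61 for Serpina1b. Without control 2 and knockout 4 there were 7 calls, with Serpina12 and Serpina3k added. That fit called 431 genes over the whole table, 246 of them lower, against 274 and 161 with all livers. It gave a median log2 fold change of -0.65 for the cluster in place of -0.47. The near-identical copies Serpina1a to Serpina1e share reads, which leaves each single level uncertain and their calls not independent. Serpina1e, at 3074 ± 1923 CPM in controls against 30.2 ± 34.9 CPM in knockouts (SD, n = 4), was highest in control 2, at 5952 CPM, and among knockouts in knockout 4, at 79.5 CPM. Its log2 fold change ran from -7.80 to -6.12 with 1 liver left out, and it lost its call in 7 of those 8 fits, with adjusted p = 0.136 at the highest without knockout 2, and Serpina1b lost its call in 5, with adjusted p = 0.0879 at the highest without knockout 2. Serpina10 and Serpina12 were chosen after their values were seen. Serpina10, which encodes the protein Z-dependent protease inhibitor and lies on the other side of Serpina6, averaged 163.9 ± 45.6 CPM in controls against 126.3 ± 24.2 CPM in knockouts (SD, n = 4) at an edgeR adjusted p of 0.346. Serpina12, an adipokine gene, averaged 25.1 ± 8.90 CPM against 3.97 ± 4.86 CPM (SD, n = 4) at an edgeR adjusted p of 0.139. DESeq2, a second test, called it lower (adjusted p = 0.0219) as well as Serpina1a to Serpina1e, where it called 6.45% of all tested genes. The genes with the smallest unadjusted p on the higher side were Serpina3g and Serpina3f, with log2 fold changes of 0.51 and 0.57 and adjusted p of 0.166 and 0.235.

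**Figure D2:**
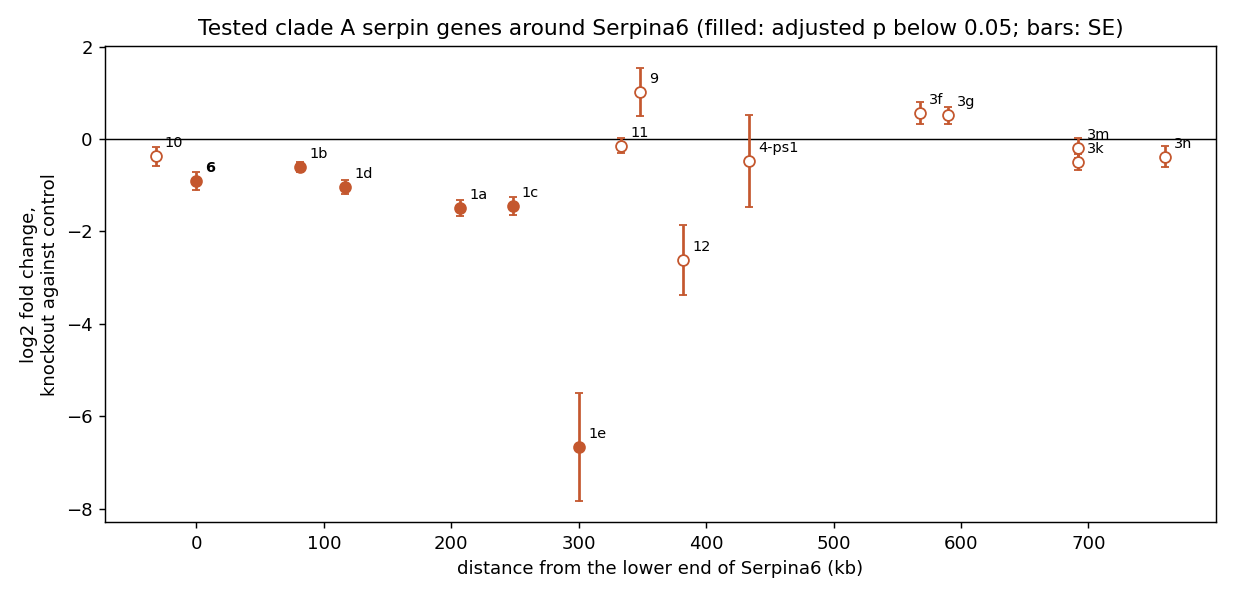
Log2 fold change of the tested clade A serpin genes (y axis, bars give the SE) against distance from the lower end of Serpina6 in kb (x axis), labelled without the shared stem Serpina, with filled points for an edgeR adjusted p below 0.05. Serpina6 and Serpina1a to Serpina1e are the filled points, from -0.61 to -6.67, and Serpina10 is the open point to the left of Serpina6.

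Nr3c1 (chromosome 18, 39410545 to 39519421, minus strand) encodes the glucocorticoid receptor. In order of liver, the 4 controls had 94.0, 95.7, 93.2 and 101.7 CPM of Nr3c1 and the 4 knockouts 73.9, 82.6, 83.4 and 89.5 CPM. Every knockout was below every control, yet the difference was small, with a log2 fold change of -0.22 (SE 0.08, edgeR adjusted p = 0.163). In the authors' TPM the groups overlapped, at 22.6 ± 0.622 in controls against 22.02 ± 1.78 in knockouts (SD, n = 4), with a log2 fold change of -0.04 on log2(TPM + 1). That scale moved the median of all tested genes by 0.088. With library size as the only scaling, the log2 fold change of Nr3c1 was -0.15 (edgeR adjusted p = 0.355). Beside this, the authors' estimated transcript length of Nr3c1, a mean over its isoforms, was 5485 ± 113 bases in controls and 5222 ± 119 bases in knockouts (SD, n = 4). In the annotation the 3 longest Nr3c1 transcripts hold 6436, 6327 and 4989 bases, so the estimate moves with the shares assigned to them. Estimated lengths were 5328, 5598, 5509 and 5503 bases in controls 1 to 4 and 5062, 5204, 5290 and 5331 bases in knockouts 1 to 4, where control 1 and knockout 4 overlapped by a few bases.

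The 5 receptor targets did not move one way. Fkbp5, Klf9 and Tat had negative log2 fold changes and Sgk1 and Tsc22d3 positive ones, and none passed edgeR's test, where 2.06% of all genes did in either direction. By DESeq2, which called 6.45% of genes, Sgk1 alone of the 5 passed.

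Sgk1 (chromosome 10, 21882184 to 21999903, plus strand) encodes a serine/threonine kinase induced through the receptor, and RefSeq gives it 6 start sites. Promoter windows of 250 bases before the start, taken from RefSeq on GRCm38.p6, were found for 8 of the 10 genes, all but Nr3c1 and Serpina6. They were searched on both strands for the receptor palindrome, GNACA and TGTNC set 3 bases apart, for the receptor's 6-base motif TGTTCT, which can overlap the palindrome, the C/EBP motif TTGCNNAA and the looser TTNNGNAA, which can overlap it. The palindrome was found in 1 gene, Sgk1, and in 0.387% of all 32851 promoter windows. The motif TTGCNNAA was also found in Sgk1 alone, at another start, and in 9.56% of all windows. Both windows are shown because they hold the only matches of the palindrome and of TTGCNNAA among the 8 genes, and both lie within introns of longer Sgk1 transcripts. Capitals mark the matches, beginning 188 bases before start site 5 for the palindrome and 210 bases before start site 2 for the C/EBP motif.
Sgk1, start site 5, chr10:21993640-21993889, plus strand: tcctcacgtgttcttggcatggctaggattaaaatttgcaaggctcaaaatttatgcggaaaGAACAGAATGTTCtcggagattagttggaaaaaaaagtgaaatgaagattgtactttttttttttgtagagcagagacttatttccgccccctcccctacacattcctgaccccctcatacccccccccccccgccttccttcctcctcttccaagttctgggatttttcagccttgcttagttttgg
Sgk1, start site 2, chr10:21978422-21978671, plus strand: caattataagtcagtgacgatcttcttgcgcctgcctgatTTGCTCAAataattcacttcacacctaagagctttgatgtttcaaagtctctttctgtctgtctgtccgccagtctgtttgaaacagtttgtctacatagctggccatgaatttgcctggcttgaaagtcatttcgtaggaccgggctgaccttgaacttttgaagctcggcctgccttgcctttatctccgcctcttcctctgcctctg
The looser TTNNGNAA matched in Hsd11b1, H6pd, Sgk1 and Tat, and in 36.8% of all windows. The Hsd11b1 window lies inside the first exon, in the untranslated part, of a longer annotated transcript. The H6pd window, from 150003237 to 150003486, lies inside the annotated gene, and no annotated H6pd transcript held the bases after its start. The bases after the start were also missing from the annotated transcripts for Sgk1 start site 3 and for Tat, whose windows hold TTNNGNAA matches. TGTTCT matched in H6pd, Sgk1 and Tsc22d3, and in 16.1% of all windows. With 6 windows, Sgk1 had more bases searched than the other genes. A match is a description of letters, and no match says only that these letters are not in the window.

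The Sgk1 readings were 7.49, 10.9, 16.1 and 12.1 CPM for controls 1 to 4, next to 18.0, 19.3, 19.7 and 17.3 CPM for knockouts 1 to 4. Every knockout was above every control, control 1 was the lowest liver, and the knockouts were tightly grouped. Sgk1 had a log2 fold change of 0.67 (SE 0.19), and missed the threshold (edgeR adjusted p = 0.106). Without control 3, the highest control, the log2 fold change was 0.87 (edgeR adjusted p = 0.0426), and DESeq2 gave an adjusted p = 0.0242 with all livers.

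Tsc22d3 (chromosome X, 140539528 to 140600659, minus strand) encodes GILZ, a glucocorticoid-induced leucine zipper protein. Control livers 1 to 4 held 135.9, 108.1, 188.2 and 148.7 CPM, against 270.5, 150.5, 234.5 and 136.3 CPM in knockout livers 1 to 4. Knockouts 1 and 3 were above all controls, and knockouts 2 and 4 lay within the control range. On the log2 scale the difference was 0.45 (SE 0.25), at an edgeR adjusted p of 0.371, and without knockout 1 it was 0.25.

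Markers of other liver cells were read beside Sgk1 and Tsc22d3. All 12 macrophage markers had a positive log2 fold change, where 50.7% of all tested genes did. None passed edgeR's test, while DESeq2 called 1, Lyz2, where it called 6.45% of all tested genes. The macrophage markers summed to 200.3 to 413.0 CPM in controls and 319.6 to 530.7 CPM in knockouts, with Lyz2 at 28.7 ± 9.12 CPM against 50.3 ± 8.63 CPM (SD, n = 4). All 11 stellate cell markers were positive too, with sums of 171.0 to 332.3 CPM and 302.4 to 617.7 CPM. The 617.7 CPM was knockout 2, and the other knockouts, at 302.4 to 327.1 CPM, lay within the control range. Positive as well were 10 of 11 endothelial markers, with sums of 213.2 to 267.1 CPM and 247.1 to 323.0 CPM. Neither list had a call by edgeR. DESeq2 called the stellate marker Col14a1 and no endothelial marker, beside the same 6.45% of all tested genes. By edgeR the markers with the smallest unadjusted p were Pdgfrb and Pecam1, with adjusted p of 0.156 and 0.130. Of 9 tested cholangiocyte markers, 5 were called higher, Spp1, Krt19, Epcam, Pkhd1 and Bicc1, where 0.849% of all tested genes were called higher. Without control 2 and knockout 4, 3 were called, Krt19, Epcam and Pkhd1, where 185 genes were called higher over the whole table. With 1 liver left out, Epcam lost its call in 4 of the 8 fits, Spp1 and Pkhd1 in 6, and Krt19 and Bicc1 in 7, with adjusted p = 0.125 at the highest for Bicc1 without knockout 2. The list of 11 summed to 114.1 to 154.4 CPM in controls and 155.9 to 481.9 CPM in knockouts. The 13 lymphocyte markers summed to 6.29 to 11.4 CPM and 9.52 to 15.5 CPM, with Ptprc at an adjusted p of 0.198, and the 8 neutrophil markers to 0.477 to 2.04 CPM and 1.08 to 2.25 CPM, with 2 of them without a count in any liver and Csf3r alone tested. The part of these cells in the values of Sgk1 and Tsc22d3 was not tested.

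Fkbp5 (chromosome 17, 28399094 to 28517527, minus strand) encodes a co-chaperone that lowers the receptor's affinity for hormone and is itself induced by it. In order of liver, the 4 controls had 191.8, 146.3, 305.6 and 270.8 CPM of Fkbp5 and the 4 knockouts 178.2, 174.5, 156.3 and 185.6 CPM. The controls were widely spread and control 2 was below every knockout, while the knockouts lay within a narrow range. On the log2 scale the difference was -0.40 (SE 0.20), at an edgeR adjusted p of 0.335. Without control 2 it was -0.56 (adjusted p = 0.104), and without control 3 it was -0.23. Of the genes that overlap Fkbp5, the opposite-strand AC154912.1 was the most abundant and did not exceed 3.30 CPM.

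Klf9 (chromosome 19, 23141226 to 23168134, plus strand) encodes a transcription factor induced by glucocorticoid and thyroid hormone. The Klf9 readings were 166.7, 203.4, 201.6 and 184.5 CPM for controls 1 to 4, next to 138.8, 144.0, 168.7 and 201.2 CPM for knockouts 1 to 4. Knockout 4 lay among the controls, and on the log2 scale the difference was -0.21 (SE 0.13), at an edgeR adjusted p of 0.404. Without knockout 4 it was -0.33 (adjusted p = 0.126).

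Tat (chromosome 8, 109990437 to 109999803, plus strand) encodes tyrosine aminotransferase, the classic glucocorticoid-induced enzyme of amino acid breakdown in liver. Control livers 1 to 4 held 1375, 1765, 2590.0 and 1769 CPM, against 2120.2, 1311, 2349 and 805.1 CPM in knockout livers 1 to 4. The groups overlapped widely, with control 3 the highest liver and knockout 4 the lowest. On the log2 scale the difference was -0.19 (SE 0.33), at an edgeR adjusted p of 0.794, and it turned positive, at 0.0049 without control 3 and 0.04 without knockout 4, with no call.

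**Figure D3:**
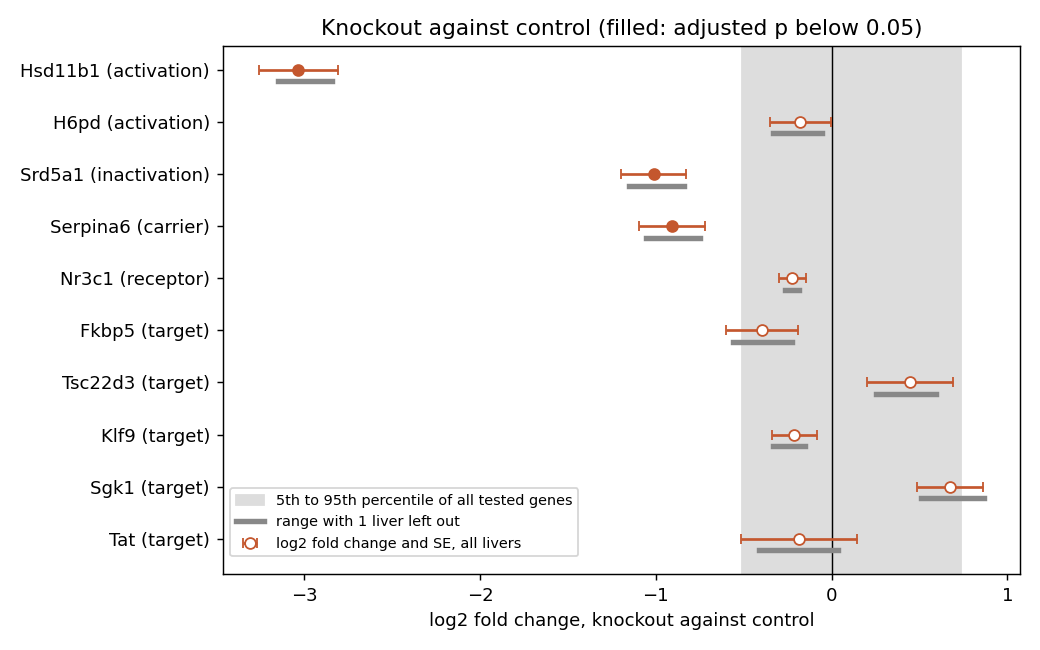
Log2 fold change of knockout against control for the 10 genes (x axis), with the SE as error bars, filled points for an edgeR adjusted p below 0.05, grey bars for the range when 1 liver is left out and a shaded band from the 5th to the 95th percentile of all tested genes. Hsd11b1 at -3.03, Srd5a1 at -1.01 and Serpina6 at -0.91 lie outside the band, which runs from -0.51 to 0.73, and the bar of Tat crosses 0.

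On the per-length scale, Tat was the most abundant of the 10 genes in controls, at 1088 ± 323 TPM, followed by Hsd11b1 at 387.6 ± 25.9 TPM, Serpina6 at 302.1 ± 37.4 TPM and H6pd at 153.2 ± 30.0 TPM (SD, n = 4). Tsc22d3, Fkbp5, Klf9 and Srd5a1 followed at 104.8, 91.4, 54.9 and 36.5 TPM, and Nr3c1 and Sgk1 came last at 22.6 and 6.95 TPM. Control ranges overlapped between H6pd and Tsc22d3, between Tsc22d3 and Fkbp5 and between Klf9 and Srd5a1, and not between the other neighbours in this order. In knockouts Tat was again first, at 1017 ± 413 TPM, and Serpina6, at 173.2 ± 43.9 TPM, Tsc22d3, at 151.2 ± 45.4 TPM, and H6pd, at 146.1 ± 34.6 TPM, followed with overlapping ranges. Hsd11b1 was sixth, at 51.7 ± 14.7 TPM, close to Klf9 at 51.2 ± 9.09 TPM, and the ranges of these 2 genes overlapped.

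The rest of the pathway was read from 3 lists of 67 genes, of which 66 were tested. The lists were drawn up by role with earlier results of this comparison known, so their shares are a description. None passed edgeR's adjusted threshold, where 2.06% of all tested genes did, and the lowest adjusted p was 0.0763. At an unadjusted p below 0.05 there were 18 of the 66, or 27.3%, against 18.5% of all tested genes. DESeq2 called 9 of them, 3 higher and 6 lower, where it called 6.45% of all tested genes. In 11 every knockout was below every control and in 2 above, which is 19.7% without overlap against 11.5% of all tested genes. The median log2 fold change was -0.11, against 0.0036 over all tested genes.

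**Figure D4:**
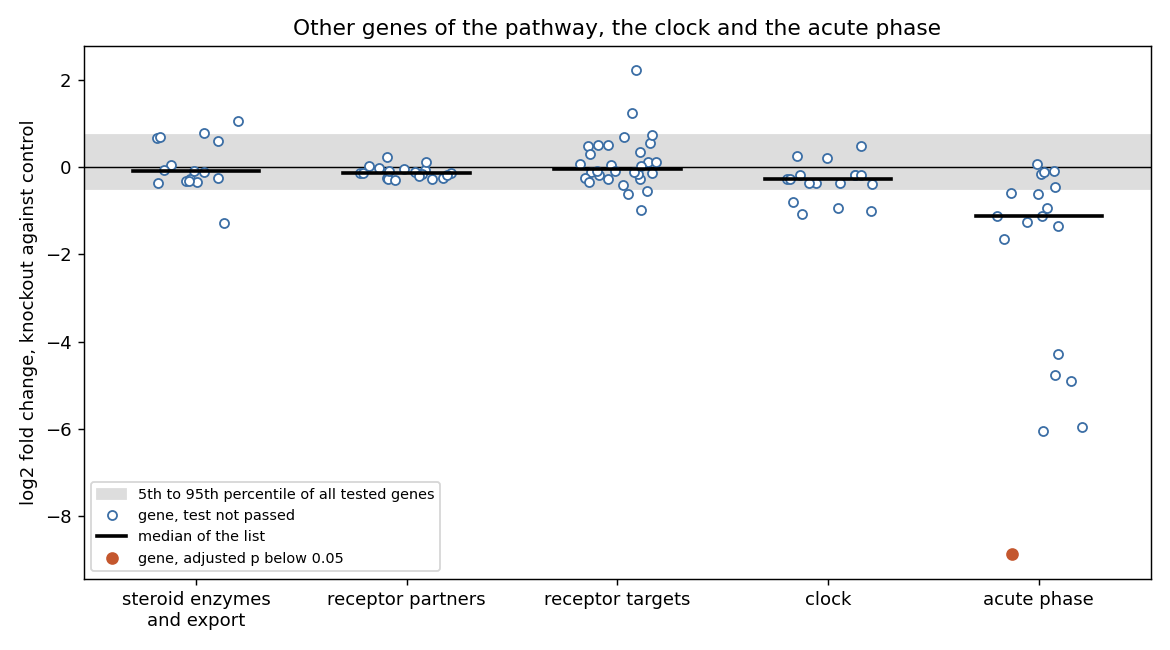
Log2 fold change of knockout against control (y axis) for each tested gene of 5 lists (x axis), with open points for genes that did not pass edgeR's test, filled points for an adjusted p below 0.05, black lines for the list medians and a grey band from the 5th to the 95th percentile of all tested genes. The lists of steroid enzymes, receptor partners and receptor targets have medians of -0.10, -0.14 and -0.035, and 17 of the 20 receptor partners lie below 0. The filled point is Orm1 in the acute phase list.

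Among 16 tested genes of steroid metabolism, endoplasmic reticulum sugar phosphate supply and steroid export, the log2 fold change was below 0 for 10 and above 0 for 6, and 6 had an unadjusted p below 0.05. Akr1c12, of the aldo-keto reductase family, averaged 86.5 ± 1.92 CPM in controls against 71.9 ± 5.10 CPM in knockouts (SD, n = 4) at an edgeR adjusted p of 0.0978. Cyp3a13, a steroid-hydroxylating cytochrome P450, averaged 208.1 ± 13.0 CPM against 166.3 ± 13.7 CPM (SD, n = 4, adjusted p = 0.0980). On the higher side, G6pc, the catalytic subunit of glucose-6-phosphatase, had a log2 fold change of 0.77 (edgeR adjusted p = 0.198) and Srd5a2, a relative of Srd5a1 that averaged 0.890 CPM against 1.43 CPM, one of 0.67 (adjusted p = 0.285). A further pair was singled out after their values were seen. Akr1d1, the liver steroid reductase that acts on the same ring as Srd5a1, read 219.3, 125.1, 201.6 and 184.8 CPM in the 4 controls and 110.9, 40.9, 103.4 and 47.1 CPM across the 4 knockouts. Its groups did not overlap, with a log2 fold change of -1.27 (SE 0.36, edgeR adjusted p = 0.123) and an adjusted p = 0.0023 by DESeq2. Of this list DESeq2 also called Akr1c12 and Cyp3a13 lower, at adjusted p = 0.0191 and 0.0124, and no other gene. Slc37a4, the carrier that brings glucose-6-phosphate to H6pd, averaged 175.1 ± 6.30 CPM against 139.8 ± 19.4 CPM (SD, n = 4, adjusted p = 0.136). Hsd11b2, the opposing dehydrogenase of kidney, named here for its role, had too few counts to test, at 0.034 and 0.020 CPM. Near-identical members of the Akr1c and Cyp3a families can share reads, so the level of each of these is uncertain. Read sharing was not measured for any gene of this list.

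Among 20 chaperones, co-regulators and transport factors of the receptor, the log2 fold change was below 0 for 17 and above 0 for 3, all between -0.30 and 0.23. Crebbp, a co-activator with acetyltransferase activity, averaged 27.7 ± 0.962 CPM in controls against 22.5 ± 2.45 CPM in knockouts (SD, n = 4) at an edgeR adjusted p of 0.122. Stip1, which links the heat shock chaperones of the receptor, averaged 95.4 ± 9.43 CPM against 78.4 ± 5.64 CPM (SD, n = 4, adjusted p = 0.136). The mineralocorticoid receptor gene Nr3c2 averaged 10.2 ± 2.33 CPM against 12.1 ± 3.36 CPM (SD, n = 4, adjusted p = 0.612), and the co-activator Ncoa3 averaged 28.5 ± 1.48 CPM against 30.6 ± 8.32 CPM (SD, n = 4, adjusted p = 0.756). No gene of this list was called by DESeq2, and 5 had an unadjusted p below 0.05.

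Of the 30 further receptor targets, 15 lay above 0 and 15 below on the log2 fold scale, and 7 had an unadjusted p below 0.05. Cps1, the entry enzyme of the urea cycle, averaged 2874 ± 405 CPM in controls against 1870.1 ± 307 CPM in knockouts (SD, n = 4) at an edgeR adjusted p of 0.0763, with every knockout below every control. Tdo2, which opens tryptophan breakdown, averaged 1933 ± 346 CPM against 1324 ± 206 CPM (SD, n = 4, adjusted p = 0.111), again without overlap. On the higher side, Tnfaip3, a brake on NF-kappa-B signalling, averaged 3.13 ± 0.608 CPM against 5.07 ± 1.19 CPM (SD, n = 4, adjusted p = 0.122). Cebpb, of the same family as Cebpa, averaged 118.7 ± 24.5 CPM against 173.7 ± 33.0 CPM (SD, n = 4, adjusted p = 0.132). DESeq2 called 6 genes of this list, with Cps1, Tdo2 and Errfi1 lower and Bcl6, Cebpb and Tnfaip3 higher, where it called 6.45% of all tested genes. The early targets Per1 and Dusp1 were named after their values were seen, with Per1 averaging 44.7 ± 4.70 CPM in controls against 39.4 ± 3.51 CPM in knockouts and Dusp1 32.2 ± 19.5 against 28.9 ± 12.02 CPM (SD, n = 4).

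**Figure D5:**
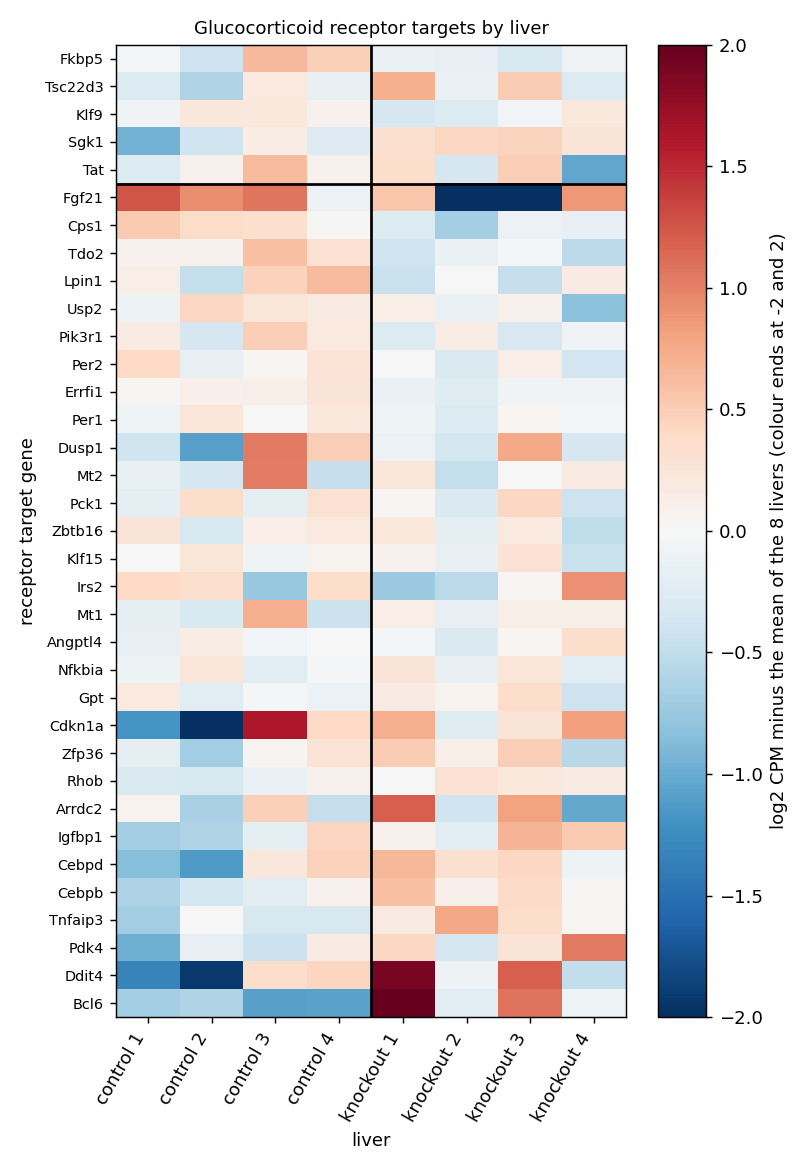
Log2 CPM of the 5 receptor targets followed here (above the line) and of 30 further targets (below it, ordered by log2 fold change), as the difference from the mean of the 8 livers, with 1 column per liver, red for higher and blue for lower, and the colour ending at -2 and 2. Sgk1 is red in all 4 knockouts, Tat is darkest blue in knockout 4, and no liver is red or blue throughout.

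Several of these targets also follow the time of day, and 17 clock genes were read as well. Per1 and Per2 are in both lists. No clock gene was called by edgeR or DESeq2. By edgeR 2 had an unadjusted p below 0.05, Tef and Nr1d2, where 18.5% of all tested genes did. Of the 17, 14 lay below 0 on the log2 fold scale and the median was -0.27. Tef, a clock output transcription factor, averaged 203.9 ± 29.8 CPM in controls against 155.6 ± 19.5 CPM in knockouts (SD, n = 4) at an edgeR adjusted p of 0.143, and Nr1d2, a repressor of the clock loop, averaged 130.4 ± 26.4 CPM against 100.6 ± 14.8 CPM (SD, n = 4, adjusted p = 0.230). Clock, a core activator of the loop, had the smallest unadjusted p on the higher side, with an adjusted p of 0.627. The part of the clock in the target levels was not tested. The acute phase list holds genes that glucocorticoid and cytokines induce together. Its median log2 fold change was -1.12, and -0.59 without control 2 and knockout 4. Lbp was called lower besides Orm1 in that fit, where 246 genes were called lower over the whole table. Orm1, an acid glycoprotein gene, averaged 473.3 ± 633 CPM in controls against 0.945 ± 1.22 CPM in knockouts (SD, n = 4). Controls 1 to 4 read 275.0, 1413, 143.7 and 61.2 CPM, so control 2 carried most of the mean. Orm1 was called lower, with a log2 fold change from -10.40 to -7.29 when 1 liver was left out, and lost its call in 6 of those 8 fits, with adjusted p = 0.146 at the highest without knockout 2. Socs3, a feedback inhibitor of cytokine signalling, followed with a log2 fold change of -1.11 (edgeR adjusted p = 0.104). DESeq2 called 4 genes of this list, Orm1, Lbp, Socs3 and Itih4, all lower, where it called 6.45% of all tested genes. Steap4, a metalloreductase, was the 1 of 19 with a positive value, at 0.073.

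Genes with the most similar pattern over the 8 livers were found by the root mean square difference of log2 CPM, each gene centred on its own mean, among the 11947 tested genes that averaged 1 CPM or more. For Serpina6 these were Syde2, Etnk2 and Enpp6, with differences of 0.136, 0.201 and 0.202. For Hsd11b1 they were Cnmd, Gm8893 and Mup11, with differences of 0.442, 0.464 and 0.544. For Fkbp5 they were Rreb1, Pde7b and Gnai1, with differences of 0.077, 0.090 and 0.126. A gene with a large difference between genotypes is matched mainly on that difference, and Mup11 shares reads with its near-identical copies.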

How the data were processed

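Polyadenylated RNA of 8 livers was sequenced from stranded TruSeq libraries, per the labels' protocols. Tools named in the submitters' processing notes are RSEM 1.2.22, STAR 2.5.1, Trimmomatic 0.36, Picard 1.84 and DESeq2, and the build is mm10. The tables deposited by the authors hold RSEM expected counts, which are estimated and need not be whole, TPM values and estimated transcript lengths. All 55450 gene identifiers matched GENCODE M21, the source of coordinates. The strand setting of the counting is not given in the sources used here.

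Groups and replicate numbers were taken from the titles, and the labels do not say outright that each liver came from its own mouse, so p-values measure the spread between these livers. Replicate numbers were taken as names only. Testing used edgeR 4.0.16 in R 4.3.3 on rounded expected counts (filterByExpr with a minimum count of 10, TMM, robust quasi-likelihood test, two-sided, Benjamini-Hochberg over 13303 genes). SEs came from the fold change and the F statistic. Log2 CPM used a prior count of 2. A count of 1 was worth 0.034 to 0.049 CPM. The fits were tested on simulated data. Alternatives included DESeq2 1.42.0 and limma 3.58.1.

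The 10 genes, the gene lists, the named-gene rule and the alternatives were chosen with earlier results of these data known. From each list the text names genes that passed the test and those with the 2 smallest unadjusted p in each direction, or the smallest for cell type lists, and says where others were chosen later. A gene that this rule names is not reported here. One hepatocyte marker symbol matched no row. Figures used matplotlib 3.10.9.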

Additional observations from a re-analysis of the deposited data

How the results depend on the processing

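The signs and calls of Hsd11b1, H6pd, Nr3c1, Fkbp5, Klf9 and Tsc22d3 held under all 19 alternatives, and Sgk1 kept its sign. With 1 liver left out, between 108 and 372 genes were called (46 to 167 higher and 61 to 205 lower), between 1 and 3 of the 10 genes, and 0 of the 66 pathway genes. Tat ran from -0.41 to 0.037 in those fits, and was at 0.0085 without control 2 and knockout 4 together, where 431 genes were called (185 higher, 246 lower) with 1 pathway gene, Akr1c20. DESeq2 called 858 genes (409 higher, 449 lower) and 9 pathway genes. On log2(TPM + 1) and log2(TPM + 0.1), which moved the median of all genes by 0.088 and 0.11, the lower genes were 86 and 84 and the higher ones 151 and 144, against 161 lower and 113 higher in edgeR. Serpina6 was not called there (adjusted p = 0.0564 and 0.0579). With no filter 1 pathway gene, Cps1, was called. The fit with the replicate number as a block called 176 genes, 98 of them lower, 1 of the 10 genes (Hsd11b1) and 1 pathway gene (Akr1d1). Srd5a1 and Serpina6 were at adjusted p = 0.0614 and 0.0882 under that block. Over all tested genes, the correlation between a control and the knockout with its number, after removing group means, was 0.207, 0.0090, -0.024 and -0.067, so the numbers are not shown to pair the livers. The cause of these changes was not tested. The least abundant of the 10 genes, Sgk1, had at least 166 counts in each liver.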

Other observations

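Bcl6 encodes a transcriptional repressor. Singled out with its values known, it had the largest positive log2 fold change of the 30 further receptor targets, 2.22 (SE 0.70, edgeR adjusted p = 0.160). The 4 controls read 7.90, 8.35, 5.98 and 5.99 CPM, and the knockouts, in order, 81.5, 10.8, 27.1 and 12.04 CPM. Every knockout was above every control, and knockout 1 stood far above the other knockouts. Knockouts 1 and 3, the highest for Bcl6, were also the higher knockouts in Tsc22d3 and Tat, but not in the other receptor targets followed here. In Fkbp5 knockout 3 was the lowest knockout and knockout 4 the highest, at 156.3 and 185.6 CPM. In Klf9 knockout 1 was the lowest and knockout 4 the highest, at 138.8 and 201.2 CPM. In Sgk1 the knockouts lay between 17.3 and 19.7 CPM.

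Among controls, the liver with the highest acute phase sum, control 2, had the lowest Fkbp5, Tsc22d3 and Hsd11b1, at 146.3, 108.1 and 361.9 CPM. It had the highest H6pd, Srd5a1 and Klf9, at 661.1, 93.1 and 203.4 CPM. In Serpina6, Nr3c1, Sgk1 and Tat it was neither the highest nor the lowest control. These were noticed in the data and not tested. The transcript length of Hsd11b1 estimated by the authors was 1464 ± 5.96 bases in controls and 1442 ± 9.33 bases in knockouts (SD, n = 4), with every knockout below every control. The gap was narrow, with control 1 at 1457.6 bases and knockout 3 at 1454.5 bases. In each other gene of the set the groups overlapped in length. The share of all genes without such overlap was not computed.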
